A study of Mus musculus with 12 samples.

Results

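Immune cells make up a small share of a pancreatic islet, and their transcripts are read here through 34 listed genes. Of these, 5 are leukocyte genes of several lineages, 16 are genes of macrophages and other myeloid cells, 6 are B cell genes and 7 are T and NK cell genes. The genes are read by cell kind, each on its probe set with the highest mean over the 12 arrays. A probe set of 1 gene was found for 33 of the 34, of 18193 genes with such a probe set, and Lck was not analysed here. Values are log2 RMA values, a summary of probe brightness in which a step of 1 is a doubling, and a gene entered the tests when it lay above a value of 5 on at least 3 arrays. That filter kept 30 of the immune genes and 15237 genes in all. Itgam (3.52 to 4.23), which encodes the integrin CD11b, Pax5 (4.20 to 4.47), the B lineage transcription factor, and Blk (4.11 to 4.82), a B cell kinase, stayed under 5 on all 12 arrays.

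The study compared C57BL6 mice with and without Sgpp2, which encodes sphingosine-1-phosphate phosphatase 2, an enzyme that removes the phosphate from the lipid mediator sphingosine-1-phosphate. The 4 groups of 3 arrays were wild type (WT) mice on a normal diet, Sgpp2-/- mice (KO) on a normal diet, WT mice on a high-fat diet and KO mice on a high-fat diet. Total RNA was hybridised as biotin-labelled cRNA. The islet source is named by the series title, while the labels say nothing of age, sex, length of feeding, how the allele was made or how many animals gave each RNA. A p-value here therefore weighs a difference against the spread within groups, pooled over the 12 arrays, part of which may be technical.

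The normal mouse islet holds a resident population of macrophages that sit beside its capillaries, take up material from the beta cells and present antigen on MHC class II. They carry the receptor for the growth factor CSF1 and, like other tissue macrophages, make the C1q subunits of complement. B, T and NK cells are rare in islets of mice without autoimmunity and are more often carried in with blood, exocrine tissue or pancreatic lymph nodes. An array of whole islet RNA reads all of these together, so fewer cells of a kind and less RNA per cell cannot be told apart.

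On all 12 arrays the endocrine genes stood near the top of the scale, with Ins2 at 14.36 to 14.71, Gcg at 14.30 to 14.55 and Sst at 14.13 to 14.43, the genes of insulin, glucagon and somatostatin. Exocrine genes were also bright, with Prss2, a trypsinogen gene, at 13.79 to 14.39. Sgpp2 measured 10.99 to 11.17 on the 6 KO arrays and 11.46 to 11.63 on the 6 WT arrays, without overlap, although where its probe set lies with respect to the deleted part is not known. Median values of the arrays lay between 7.0 and 7.13, and the median standard error of a difference between 2 groups was 0.12. Array 3 of the KO high-fat group was the lowest of the 12 for 23.1% of all genes tested, the largest such share. Differences of single genes printed below that move by over 1.5 times without this array are given without it too.

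Myeloid genes were read well above the floor, and 15 of the 16 were above 5 on every array. The 5 genes of several lineages were also above 5 everywhere. Among the B cell genes Cd79a, Cd79b and Cd22 were above 5 on all 12 arrays and Ms4a1 on 6. Among the T and NK genes Cd3g was above 5 on 11 arrays and the other 5 measured genes on all 12. Most T and NK values lay close to the floor, Prf1 excepted. On each array 75.9% to 77.3% of all probe sets lay above 5, so a value just above it does not show that a transcript is present. Since probe sets differ in brightness at equal RNA, these levels are not an order of abundance between genes.

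**Figure D1:**
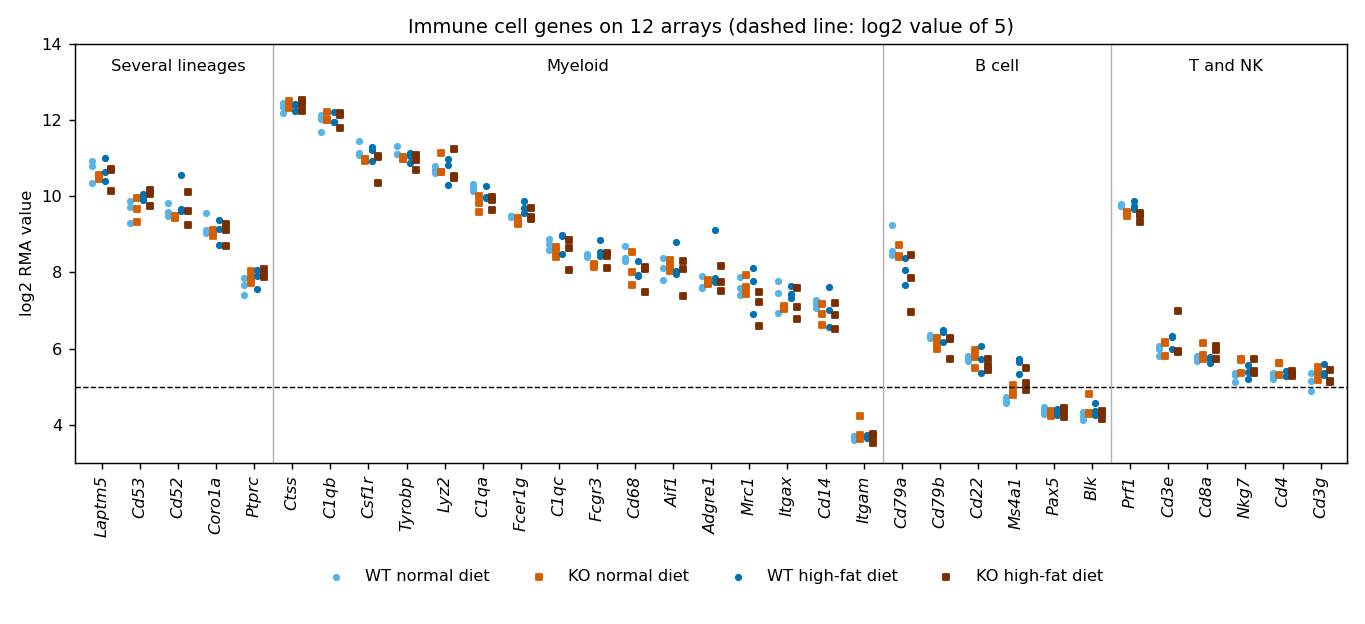
Log2 RMA value (vertical axis) of the 33 immune genes with a probe set on each of 12 arrays, grouped by cell kind; colour and marker give the group and the dashed line the value of 5. Ctss reaches 12.52 at the top, while Itgam, Pax5 and Blk stay under the line on all 12 arrays.

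Several of these genes carry, close to their start, the letters AGGAAGT or their reverse complement ACTTCCT, which hold the GGAA core bound by ETS family factors. That family includes PU.1, which macrophages and B cells need to form. Of 23 immune genes with a RefSeq promoter entry (GRCm38.p6), 8 held the string on either strand in the 250 bases upstream of a start, which is 34.8%, against 8.80% of 27025 genes. The 8 were Ptprc, Lyz2, C1qb, C1qc, Mrc1, Cd79a, Cd3e and Prf1; in Ptprc and Cd3e the string lay upstream of 1 start but inside the annotated bounds of the gene. The shorter overlapping string GAGGAA was in 14 of the 23 (60.9%) and 25.9% of all genes, GAGGAAG in 5 (12% of all genes) and GAGGAAGT in 1 (2.79%), so the excess depends on the string, and the strings were chosen after others had been tried. A match describes letters and says nothing of binding. The stretches below are shown because C1qb and C1qc are neighbours on chromosome 4, Cd79a is the B cell gene that holds the string and Prf1 is the gene that passed the test; capitals mark the string. They lie at chr4:136886201-136886313 (minus strand), chr4:136893043-136893164 (minus strand), chr7:24897382-24897496 (plus strand) and chr10:61297667-61297750 (plus strand), each ending before the annotated bounds of its gene.
C1qb: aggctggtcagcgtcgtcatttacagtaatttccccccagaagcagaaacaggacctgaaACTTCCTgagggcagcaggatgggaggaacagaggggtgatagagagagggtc
C1qc: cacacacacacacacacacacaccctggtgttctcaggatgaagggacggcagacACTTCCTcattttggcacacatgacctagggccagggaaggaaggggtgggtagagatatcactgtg
Cd79a: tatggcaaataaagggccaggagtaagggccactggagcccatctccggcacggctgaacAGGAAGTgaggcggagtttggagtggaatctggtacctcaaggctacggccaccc
Prf1: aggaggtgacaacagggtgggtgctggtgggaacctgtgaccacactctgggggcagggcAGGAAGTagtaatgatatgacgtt

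Leukocyte genes of several lineages showed no difference that passed the test. Ptprc, which encodes the phosphatase CD45 found on nearly all white blood cells, measured 7.40, 7.67 and 7.86 in WT and 7.73, 7.84 and 8.02 in KO on the normal diet. With high-fat feeding it was 7.56, 7.91 and 8.07 in WT and 8.09, 7.94 and 7.87 in KO. The groups overlapped on both diets, and averaged over the diets KO exceeded WT by 0.18 (SE 0.10), adjusted p = 0.285 in limma's fit over all genes. Its dimmer probe set pointed the other way, with a difference of −0.52 (unadjusted p = 0.00336), so that the 2 probe sets disagree in sign. Ptprc lies on chromosome 1, as Sgpp2 does.

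Laptm5, a lysosomal membrane protein of blood cells, measured 10.35, 10.78 and 10.92 in WT and 10.54, 10.47 and 10.55 in KO on the normal diet. With high-fat feeding the values were 10.64, 10.41 and 11.003 in WT and 10.69, 10.71 and 10.15 in KO. The lowest of the 12 was array 3 of the KO high-fat group and the highest array 3 of the WT high-fat group. Cd53, a tetraspanin, was 9.29, 9.88 and 9.71 in WT and 9.96, 9.32 and 9.68 in KO on the normal diet. It was 9.91, 9.99 and 10.06 in WT and 10.05, 9.75 and 10.16 in KO on the high-fat diet. In WT all 3 high-fat arrays exceeded all 3 normal-diet arrays, in KO the ranges overlapped, and the diet difference averaged over genotypes was 0.35 (SE 0.13), adjusted p = 0.278.

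Cd52, a small surface glycoprotein, was 9.49, 9.58 and 9.82 in WT and 9.45, 9.47 and 9.44 in KO on the normal diet. The high-fat values were 9.66, 9.62 and 10.57 in WT and 9.61, 10.10 and 9.23 in KO. On the normal diet every KO array lay under every WT array, by a narrow margin, while the high-fat groups overlapped and array 3 was their highest value in WT and their lowest in KO. Coro1a, an actin-binding protein of leukocytes, gave 9.04, 9.10 and 9.56 in WT and 8.96, 9.06 and 9.10 in KO on the normal diet. On the other diet it gave 9.15, 8.71 and 9.38 in WT and 9.11, 9.28 and 8.69 in KO. Again the lowest value was that of KO high-fat array 3, and the groups overlapped.

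Among the complement and growth factor receptor genes of macrophages, C1qa, C1qc and Csf1r had lower averaged means in KO, and none passed the test. C1qa, a chain of C1q, measured 10.22, 10.33 and 10.13 in WT and 9.99, 9.82 and 9.59 in KO on the normal diet. On the high-fat diet it measured 9.99, 9.96 and 10.27 in WT and 9.89, 9.97 and 9.65 in KO. All 3 KO arrays were under all 3 WT arrays on the normal diet; on the high-fat diet KO array 2 lay between the WT values. The difference was −0.43 (SE 0.13), adjusted p = 0.109, on the normal diet and −0.33 (SE 0.091), adjusted p = 0.0530, averaged over diets. It passed the threshold when KO normal diet array 1 (adjusted p = 0.0465) or WT high-fat array 2 (adjusted p = 0.0342) was left out.

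C1qb, the second chain of the same protein, was 11.69, 12.03 and 12.12 in WT and 12.01, 12.0046 and 12.22 in KO on the normal diet. It was 11.96, 11.94 and 12.22 in WT and 12.18, 12.14 and 11.79 in KO on the high-fat diet. The groups overlapped, and the averaged difference was 0.062 (SE 0.099), adjusted p = 0.704. The third chain, C1qc, ranged from 8.07 to 8.98, with an averaged difference of −0.24 (SE 0.13), adjusted p = 0.259. Leaving out KO high-fat array 3 gave −0.13 for C1qc. The sign for C1qb is not settled: it was −0.0025 without WT normal diet array 1 and 0.12 without KO high-fat array 3, and its 3 probe sets gave 0.062, 0.078 and −0.22.

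Csf1r, the receptor for CSF1 on which islet macrophages depend, gave 11.09, 11.15 and 11.45 in WT and 10.92, 10.99 and 10.99 in KO on the normal diet. The high-fat arrays gave 11.20, 10.91 and 11.30 in WT and 11.02, 11.05 and 10.36 in KO. KO lay under WT without overlap on the normal diet, by little, and KO high-fat array 3 was the lowest of all 12. The averaged difference was −0.30 (SE 0.13), adjusted p = 0.148, and −0.19 without that array. Its 3 probe sets gave −0.30, −0.29 and −0.11.

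Tyrobp, the adaptor DAP12 that carries signals of several myeloid receptors, measured 11.12, 11.12 and 11.33 in WT and 11.03, 10.97 and 10.97 in KO on the normal diet. High-fat feeding gave 11.14, 10.87 and 11.05 in WT and 11.08, 10.96 and 10.70 in KO. The normal-diet groups did not overlap and the high-fat groups did; the averaged difference was −0.15 (SE 0.078), adjusted p = 0.223. Leaving out KO high-fat array 3 made it −0.097. Ctss, the lysosomal protease cathepsin S that trims the MHC class II chaperone, was 12.19, 12.34 and 12.45 in WT and 12.34, 12.33 and 12.50 in KO on the normal diet. With high-fat feeding it was 12.44, 12.39 and 12.24 in WT and 12.41, 12.52 and 12.24 in KO. All 12 values lay between 12.19 and 12.52 and no group stood apart.

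Both Fc receptor genes lie on chromosome 1. Fcgr3, a receptor for IgG, measured 8.42, 8.42 and 8.47 in WT and 8.14, 8.20 and 8.22 in KO on the normal diet. It measured 8.85, 8.44 and 8.54 in WT and 8.51, 8.43 and 8.10 in KO on the high-fat diet. KO was under WT without overlap on the normal diet only, and the averaged difference was −0.26 (SE 0.085), adjusted p = 0.0862, which passed when WT high-fat array 2 was left out (adjusted p = 0.0411). Fcer1g, the signalling chain shared by Fc receptors, gave 9.45, 9.49 and 9.48 in WT and 9.44, 9.30 and 9.27 in KO on the normal diet. The high-fat arrays gave 9.70, 9.56 and 9.86 in WT and 9.41, 9.69 and 9.46 in KO. KO lay under WT on the normal diet, high-fat lay over normal diet in WT, and the diet difference averaged over genotypes was 0.21 (SE 0.07), adjusted p = 0.231.

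The other myeloid genes overlapped between KO and WT on both diets. Adgre1, the macrophage marker F4/80, ranged from 7.52 to 9.10, and was singled out after its values were seen because its top value stands apart. It was 7.74, 7.86 and 9.10 on the 3 WT high-fat arrays, so 1 array carried the group's difference from the rest. Mrc1, the mannose receptor, ranged from 6.596 to 8.13, with its lowest value on KO high-fat array 2. Lyz2, lysozyme of myeloid cells, ranged from 10.30 to 11.24; its probes may also bind transcripts of its close copy Lyz1. Cd68 ranged from 7.48 to 8.69, Cd14 from 6.51 to 7.62, Itgax from 6.77 to 7.78 and Aif1 from 7.38 to 8.79.

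No B cell gene passed the test, and the means of Cd79a were lower on the high-fat diet in both genotypes. The other tested B cell genes did not share this in WT: the diet difference was 0.056 for Cd79b and −0.015 for Cd22. The means of Ms4a1 were higher on the high-fat diet in both genotypes. Cd79a, a signalling chain of the B cell receptor, measured 8.57, 9.24 and 8.45 in WT and 8.72, 8.42 and 8.42 in KO on the normal diet. It measured 8.07, 7.66 and 8.37 in WT and 8.45, 7.86 and 6.96 in KO on the high-fat diet. In WT the high-fat arrays lay under the normal-diet arrays without overlap, in KO they overlapped narrowly, and KO high-fat array 3 was the lowest of the 12. The diet difference was −0.72 (SE 0.34) in WT, −0.77 (SE 0.34) in KO and −0.74 (SE 0.24), adjusted p = 0.211, averaged over genotypes. Without KO high-fat array 3 the KO difference was −0.37 and the averaged one −0.54, and without WT normal diet array 2 the WT difference was −0.47.

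Ms4a1, the B cell surface protein CD20, was 4.72, 4.57 and 4.62 in WT and 5.04, 4.92 and 4.78 in KO on the normal diet. On the high-fat diet it was 5.71, 5.34 and 5.65 in WT and 5.49, 4.92 and 5.10 in KO. The WT high-fat arrays stood above all WT and KO normal-diet arrays, while 5 of the 6 normal-diet values were under 5, the level used here as the floor. Ms4a1 entered the fit mainly through the high-fat arrays, where it is higher, and all 3 WT normal-diet values lie under the floor, so no size of a diet difference or test is read from it. Its second probe set stayed between 4.33 and 5.02 on all 12 arrays.

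Cd79b, the partner of Cd79a, gave 6.36, 6.27 and 6.30 in WT and 5.98, 6.16 and 6.29 in KO on the normal diet. The high-fat arrays read 6.43, 6.17 and 6.50 in WT and 6.24, 6.28 and 5.71 in KO. The groups overlapped and the lowest value was on KO high-fat array 3; the averaged genotype difference was −0.23 (SE 0.11), adjusted p = 0.178, and −0.14 without that array. Cd22, an inhibitory lectin of B cells, was 5.79, 5.74 and 5.68 in WT and 5.78, 5.49 and 5.97 in KO on the normal diet. It was 6.08, 5.36 and 5.73 in WT and 5.45, 5.54 and 5.72 in KO on the high-fat diet. No group of Cd22 values stood apart.

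Prf1, the gene of the pore-forming protein perforin of cytotoxic T and NK cells, was the 1 immune gene of 30 that passed the test, lower in KO. It measured 9.75, 9.75 and 9.79 in WT and 9.48, 9.59 and 9.55 in KO on the normal diet. With high-fat feeding it measured 9.86, 9.67 and 9.74 in WT and 9.33, 9.52 and 9.56 in KO. All 6 KO values lay under all 6 WT values. The group means were 9.76 ± 0.024 in WT and 9.54 ± 0.055 in KO on the normal diet and 9.76 ± 0.099 and 9.47 ± 0.12 on the high-fat diet (SD, n = 3 arrays). The difference averaged over diets was −0.25 (SE 0.058), adjusted p = 0.0313, or 1.19-fold lower, with limma and Benjamini-Hochberg adjustment.

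The call for Prf1 was close to the threshold. It was lost with any of 9 arrays left out: WT normal diet array 1 (adjusted p = 0.0762), WT normal diet array 2 (adjusted p = 0.0508), WT normal diet array 3 (adjusted p = 0.0687), KO normal diet array 1 (adjusted p = 0.0594), KO normal diet array 2 (adjusted p = 0.0536), KO normal diet array 3 (adjusted p = 0.0741), WT high-fat array 1 (adjusted p = 0.0682), WT high-fat array 3 (adjusted p = 0.0658) and KO high-fat array 1 (adjusted p = 0.0504). It was also lost with the replicate number as a block (adjusted p = 0.165) and with same-numbered KO arrays as a random block (adjusted p = 0.0564), with median centring (0.132) and with cyclic loess (0.0977). Its second probe set had a 12-array mean of 5.40, near the floor, beside 9.63 for the first. It differed by 0.036 (unadjusted p = 0.676 in limma's fit). Which cells gave the Prf1 signal was not tested. Of the other genes of T and NK cells 5 were tested and none passed. All 5 had higher averaged means in KO, where 59.5% of all genes had lower ones.

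Nkg7, a granule membrane protein of cytotoxic cells, measured 5.35, 5.13 and 5.31 in WT and 5.70, 5.37 and 5.72 in KO on the normal diet. The high-fat values were 5.57, 5.38 and 5.20 in WT and 5.42, 5.74 and 5.36 in KO. All KO values exceeded the WT values on the normal diet, narrowly, and the groups overlapped on the high-fat diet; the normal-diet difference was 0.33 (SE 0.14), adjusted p = 0.190. Cd4, the co-receptor of helper T cells that some myeloid cells also carry, was 5.31, 5.37 and 5.20 in WT and 5.30, 5.63 and 5.62 in KO on the normal diet. On the high-fat diet it was 5.42, 5.27 and 5.27 in WT and 5.34, 5.41 and 5.29 in KO. Its normal-diet difference was 0.23 (SE 0.098), adjusted p = 0.213, with overlapping groups.

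Cd3e, a chain of the T cell receptor complex, gave 5.98, 6.07 and 5.81 in WT and 6.15, 5.79 and 6.18 in KO on the normal diet. It gave 5.98, 6.32 and 6.29 in WT and 6.996, 5.92 and 5.94 in KO on the high-fat diet. KO high-fat array 1 stood above the other 11, which overlapped between groups. Cd8a, the co-receptor of cytotoxic T cells, was 5.73, 5.66 and 5.80 in WT and 5.72, 5.82 and 6.14 in KO on the normal diet. The high-fat arrays read 5.76, 5.74 and 5.61 in WT and 5.72, 6.06 and 5.97 in KO. Cd8a and Cd3g (4.89 to 5.60) showed no group that stood apart.

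**Figure D2:**
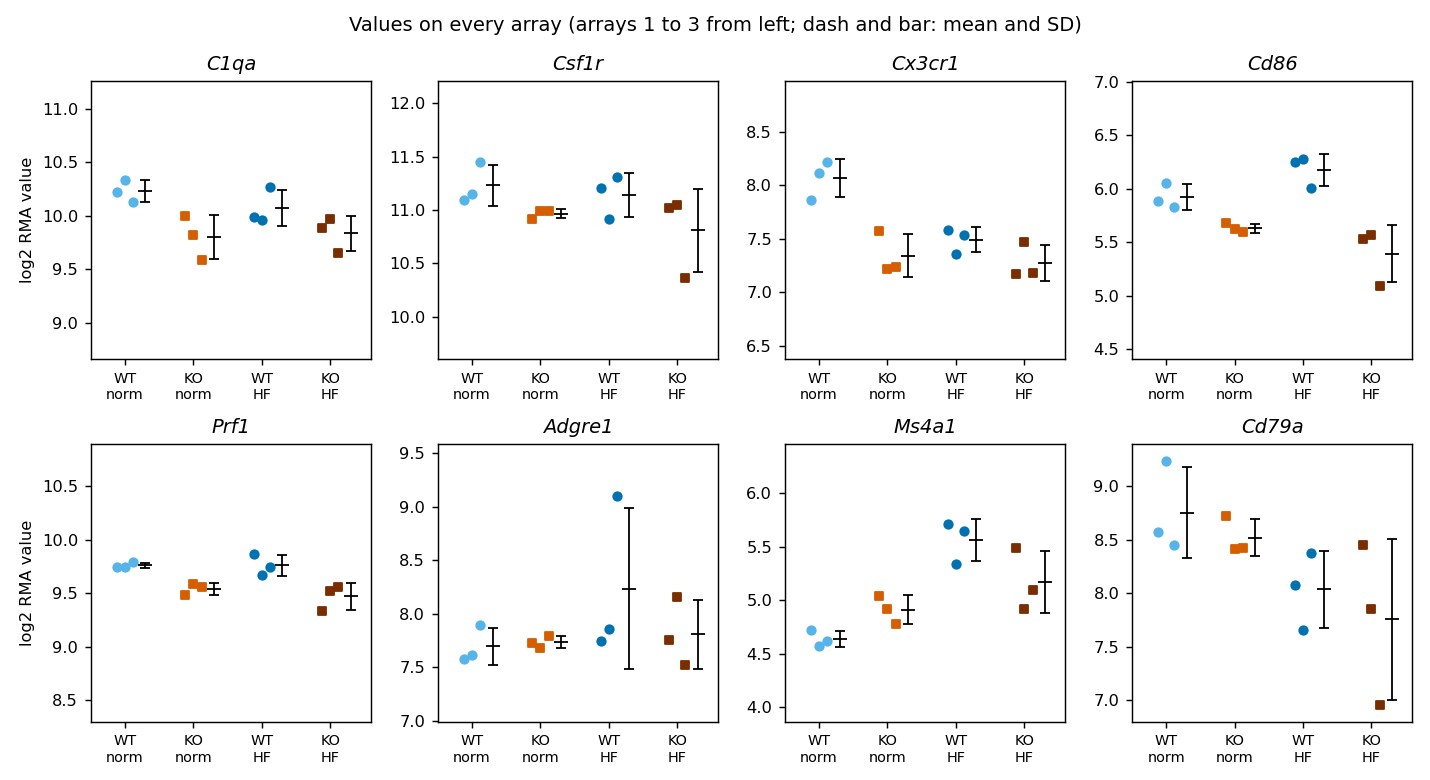
Log2 RMA value (vertical axis) on each array for 6 of the listed genes and for Cx3cr1 and Cd86, in 4 groups of 3; points are arrays, and the dash and bar give the mean and SD. The 6 KO values of Prf1 lie under the 6 WT values, and 1 WT high-fat array of Adgre1 stands at 9.10.

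Between genotypes, the counts of immune genes lay near or under the shares of all genes. On the normal diet 0 of 30 passed in limma's fit, where 0.84% of all genes did, and 4 of 30 (C1qa, Prf1, Nkg7 and Cd4) had an unadjusted p under 0.05, against 22.1% of all genes. The groups did not overlap for 9 of 30 (Cd52, Csf1r, C1qa, Fcgr3, Fcer1g, Tyrobp and Prf1 lower in KO, Ms4a1 and Nkg7 higher), against 34.3% of all genes. Ms4a1 lay between 4.57 and 5.04 on these arrays, under or at the floor, so its direction is not read. On the high-fat diet 0 of 30 passed, against 0.0263% of all genes, and 3 (Fcgr3, Ms4a1 and Prf1) had an unadjusted p under 0.05, against 13.4%. Prf1 alone did not overlap there, against 14.8% of all genes. Averaged over diets 1 of 30 passed, against 6.32% of all genes, and 6 (Csf1r, C1qa, Fcgr3, Fcer1g, Nkg7 and Prf1) had an unadjusted p under 0.05, against 28.6%. Prf1 alone did not overlap over 6 against 6 arrays, against 4.99% of all genes. Ms4a1 stays in these counts because the shares cover all genes tested, and no test is read from it.

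The median difference between KO and WT was −0.067 over the 30 genes on the normal diet and −0.054 over all genes, with KO means lower for 15 of 30 and for 59.8% of all genes. Its sign turned with median centring (0.038) and with no filter (0.0041). With high-fat feeding it was −0.19 and −0.029, with KO means lower for 23 of 30 immune genes and 56.7% of all genes. That median rested on 1 array in each group: it was −0.071 without KO array 3, −0.086 without WT array 3 and 0.023 without both, a setting chosen after the values were seen. Averaged over diets the median was −0.16, with KO means lower for 20 of 30 and 59.5% of all genes, and −0.0038 without both arrays. By kind, the averaged median was −0.23 for 15 myeloid genes, −0.15 for 4 B cell genes and 0.11 for 6 T and NK genes, and −0.041 for all genes. These medians by kind were not taken without KO high-fat array 3. On that array the mean deviation was −0.39 for the myeloid, −0.44 for the B cell and −0.064 for the T and NK genes. The B cell genes include Ms4a1, with values under the floor.

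**Figure D3:**
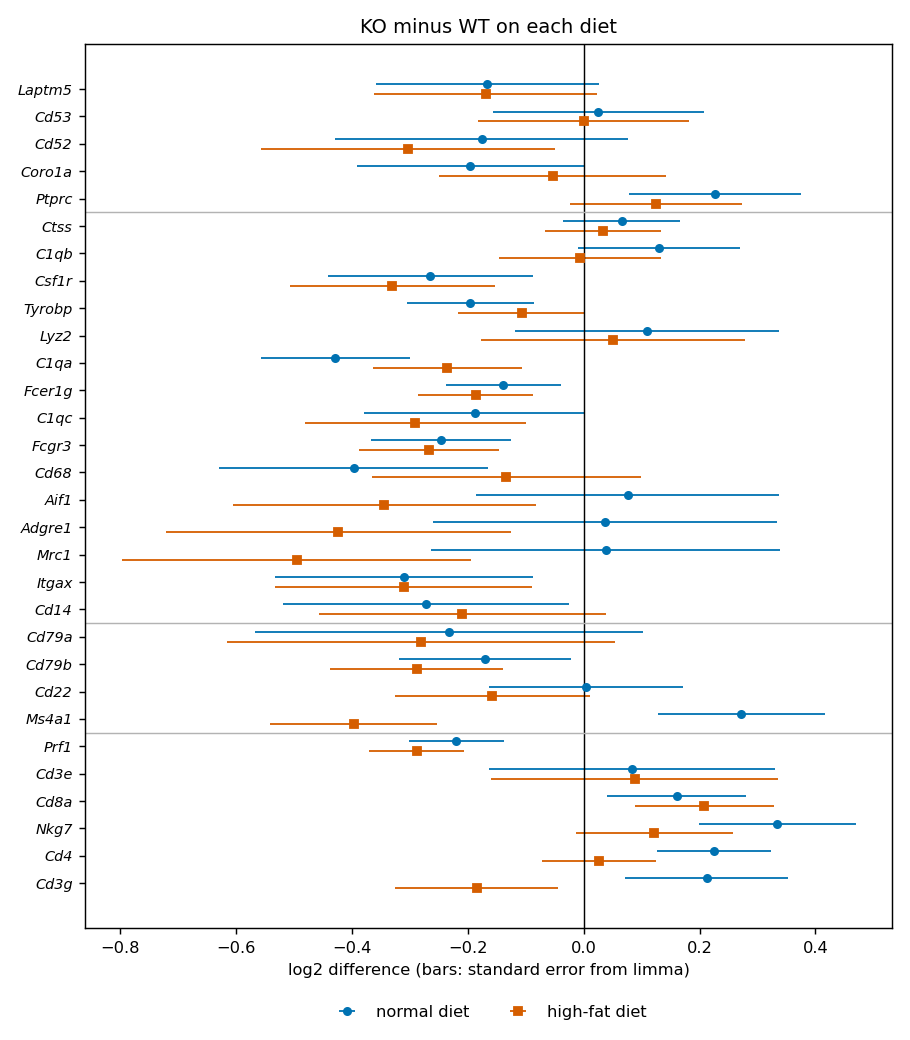
Log2 difference KO minus WT (horizontal axis) for 30 tested immune genes, with circles for the normal diet and squares for the high-fat diet; bars are standard errors from limma. Prf1 lies left of 0 on both diets, and 23 of the 30 squares lie left of 0.

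High-fat feeding changed no immune gene past the threshold in either genotype. In WT 0 of 30 passed, against 0.0788% of all genes, and 2 (Fcer1g and Ms4a1) had an unadjusted p under 0.05, against 11.1%. The groups did not overlap for 5, Cd68 and Cd79a being lower and Cd53, Fcer1g and Ms4a1 higher on the high-fat diet (Ms4a1 from values under the floor), against 15.8% of all genes. Ms4a1 stays in the counts of this paragraph because the shares cover all genes tested, and no test is read from it. In KO 0 of 30 passed, as did 0.0% of all genes, 1 (Cd79a) had an unadjusted p under 0.05, against 7.7%, and all 30 overlapped, where 13.0% of all genes did not. Averaged over genotypes 0 of 30 passed, against 0.197% of all genes, with 4 (Cd53, Fcer1g, Cd79a and Ms4a1) at an unadjusted p under 0.05, against 13.6%; all 30 overlapped, where 0.958% of all genes did not. The median diet difference of the 30 was 0.044 in WT and −0.031 in KO, beside −0.017 and −0.0057 over all genes; without KO high-fat array 3 the KO median was 0.099.

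**Figure D4:**
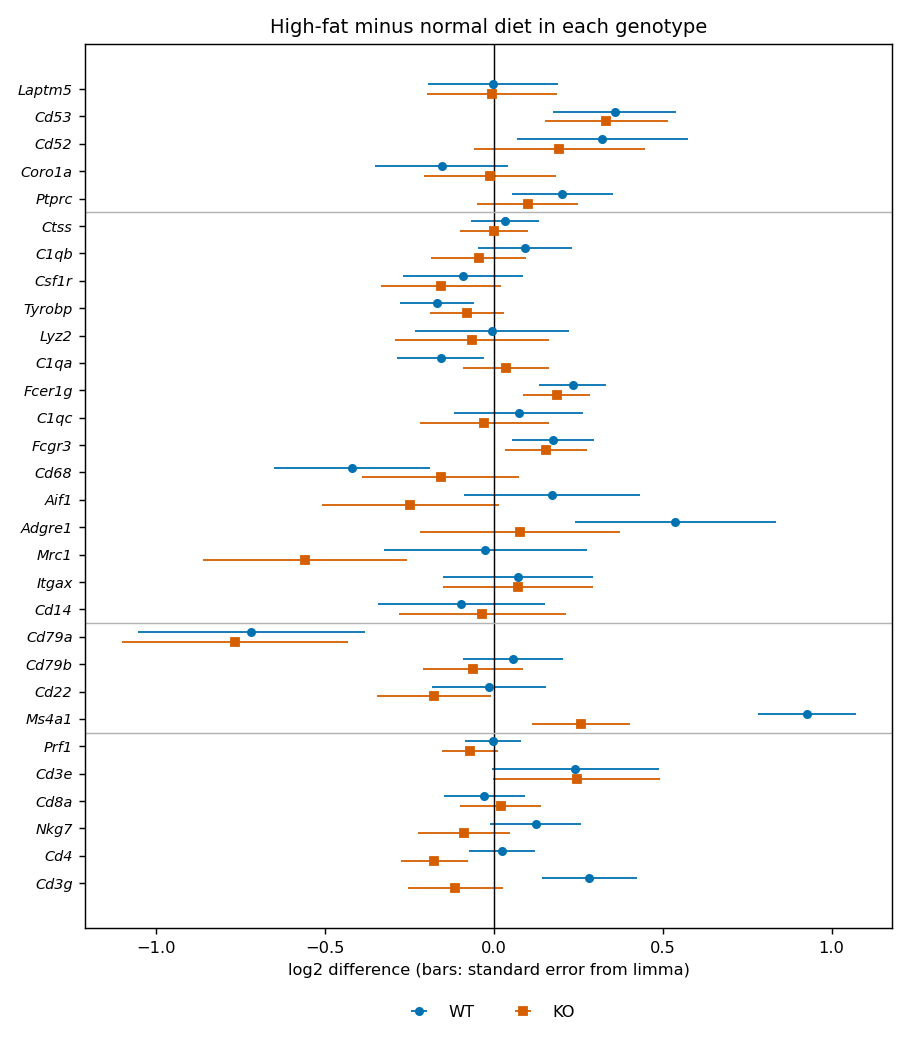
Log2 difference high-fat minus normal diet (horizontal axis) for 30 tested immune genes, with circles for WT and squares for KO; bars are standard errors from limma. Cd79a lies farthest to the left in both genotypes and Ms4a1, under 5 on all 3 WT normal-diet arrays, farthest to the right in WT.

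The test of whether the genotype difference itself changed with diet passed for 0 of 30 immune genes and 0.0% of all genes in limma's fit. Ms4a1 alone had an unadjusted p under 0.05, against 4.97% of all genes. It entered the fit mainly through the high-fat arrays, with values under the floor as above, so that test is not read. The WT and KO diet differences were therefore not shown to differ.

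Many immune genes were high or low on the same arrays. KO high-fat array 3 was the lowest of the 12 for 14 of 30 immune genes, against 23.1% of all genes tested. WT high-fat array 3 was the highest for 7 of 30, against 14.6% of all genes. The mean deviation of the 15 myeloid genes from their 12-array means was −0.39 on KO high-fat array 3, beside −0.0039 and 0.048 on the other arrays of that group. It was 0.25 on WT high-fat array 3, beside 0.12 and −0.065. In the normal-diet groups it ran from −0.05 to 0.20 in WT and from −0.094 to −0.017 in KO, which overlap. On KO high-fat array 3 S100a9, a neutrophil gene, had its highest value of the 12 (9.11, range 5.80 to 9.11), Cd74 its lowest (11.87) and the endocrine list a mean deviation of −0.12. The part of these in the lower immune values was not tested.

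**Figure D5:**
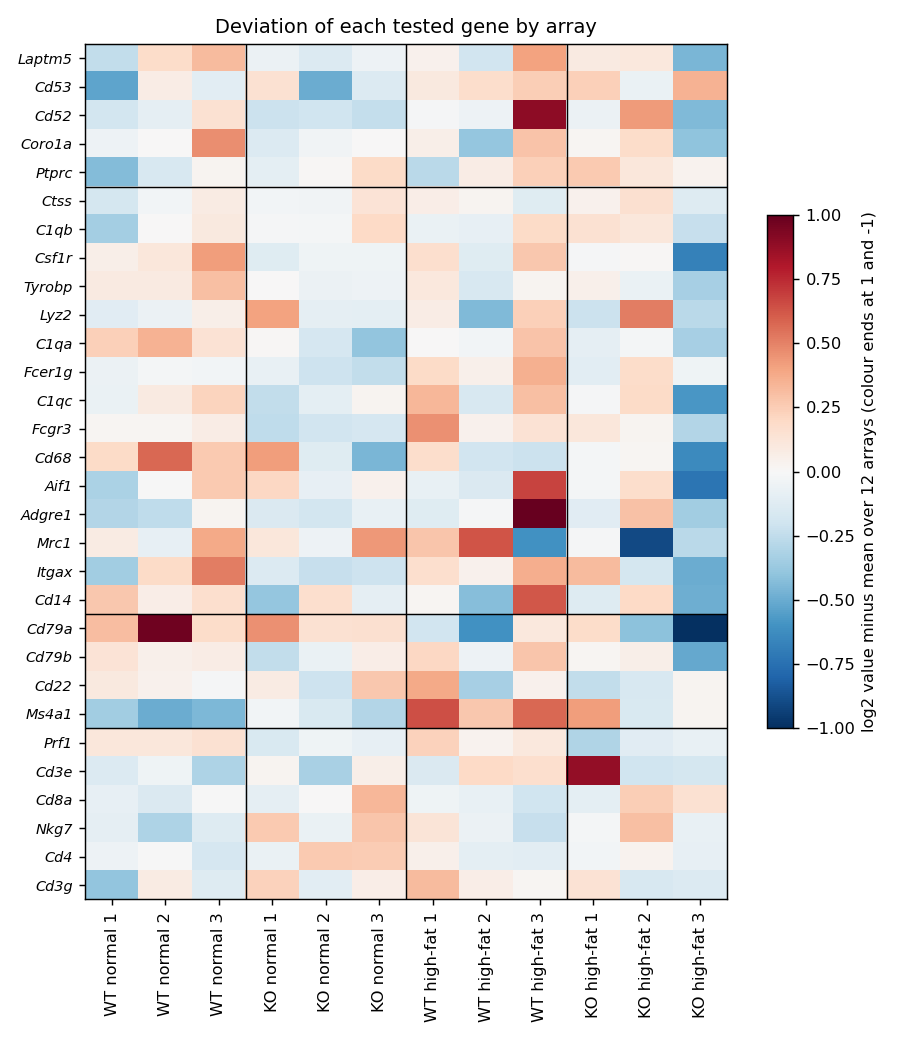
Deviation of each of 30 tested immune genes (rows) from its mean over 12 arrays (columns), as log2 units in colour, which ends at 1 and −1. The column of KO high-fat array 3 is the lowest of the 12 for 14 genes and that of WT high-fat array 3 the highest for 7.

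Other macrophage genes passed the genotype test. Of 16 tested among 20 further macrophage genes, 3 passed averaged over diets, each lower in KO, against 6.32% of all genes, and 12 had lower KO means, against 59.5%. Cx3cr1, the fractalkine receptor of resident macrophages, measured 7.87, 8.11 and 8.22 in WT and 7.57, 7.22 and 7.23 in KO on the normal diet. On the high-fat diet it measured 7.58, 7.36 and 7.53 in WT and 7.17, 7.47 and 7.18 in KO. All KO values were under all WT values on the normal diet and the groups overlapped on the high-fat diet; the difference was −0.72 (SE 0.13), adjusted p = 0.0433, on the normal diet and −0.47 (SE 0.093), adjusted p = 0.0207, averaged. The normal-diet call was lost without WT normal diet array 1 (adjusted p = 0.117), WT normal diet array 2 (adjusted p = 0.0789), WT normal diet array 3 (adjusted p = 0.123), KO normal diet array 2 (adjusted p = 0.121), KO normal diet array 3 (adjusted p = 0.147), WT high-fat array 1 (adjusted p = 0.0515), WT high-fat array 3 (adjusted p = 0.0547) and KO high-fat array 1 (adjusted p = 0.0549). The averaged call was lost without WT normal diet array 3 (adjusted p = 0.0508), KO normal diet array 3 (adjusted p = 0.0594), WT high-fat array 1 (adjusted p = 0.0505) and WT high-fat array 3 (adjusted p = 0.0524). It was also lost with the paired KO arrays as a random block (adjusted p = 0.0512), and both calls with the probe sets of Cx3cr1 averaged (adjusted p = 0.104 and 0.15). The second Cx3cr1 probe set in that average lay between 4.25 and 4.81, under the floor of 5 on all 12 arrays.

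Cd86, a costimulatory protein of antigen-presenting cells, gave 5.89, 6.05 and 5.83 in WT and 5.68, 5.62 and 5.59 in KO on the normal diet. The high-fat arrays gave 6.25, 6.28 and 6.01 in WT and 5.53, 5.57 and 5.09 in KO, the last close to the floor of 5. The 6 KO values lay under the 6 WT values, the averaged difference was −0.54 (SE 0.09), adjusted p = 0.0110, and the call was kept with each array left out in turn and lost when its probe sets were averaged (difference −0.26, adjusted p = 0.0814). The second Cd86 probe set in that average had a mean of 4.86 over the 12 arrays, under the floor. Folr2, a folate receptor of tissue macrophages, was 5.66, 5.74 and 5.55 in WT and 5.18, 5.29 and 5.47 in KO on the normal diet. It was 5.60, 5.60 and 5.63 in WT and 5.55, 5.44 and 5.24 in KO on the high-fat diet. All its values, 5.18 to 5.74, lay close to the floor of 5. Its 6 KO values also lay under the 6 WT values (averaged difference −0.27 (SE 0.07), adjusted p = 0.0471), but the call was kept only without WT high-fat array 2 (adjusted p = 0.0413) and KO high-fat array 1 (adjusted p = 0.0438) and was lost without any of the other 10 arrays.

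Of 11 listed antigen presentation genes 9 were tested, with a median level of 8.18. Among the brightest, Cd74, the MHC class II chaperone, ranged from 11.87 to 12.82, H2-Aa from 11.50 to 12.02 and H2-Eb1 from 11.12 to 11.92. None of 9 tested MHC class II genes passed in any comparison, and 7 had lower averaged means in KO, against 59.5% of all genes. The smallest p belonged to H2-DMa (−0.21 (SE 0.11), adjusted p = 0.229).

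Of 24 tested chemokine, receptor and growth factor genes, Cxcl1 and Cx3cl1 passed between genotypes averaged over diets, where 6.32% of all genes passed. Cxcl1, which attracts neutrophils, was 5.63, 5.80 and 5.75 in WT and 6.47, 6.35 and 6.42 in KO on the normal diet. It was 5.97, 5.94 and 6.04 in WT and 5.97, 6.39 and 6.58 in KO on the high-fat diet. KO exceeded WT without overlap on the normal diet, by 0.69 (SE 0.13), adjusted p = 0.0444, and averaged over diets by 0.51 (SE 0.091), adjusted p = 0.0137; the first call was kept only without WT high-fat array 2 (adjusted p = 0.0408), KO high-fat array 1 (adjusted p = 0.0355) and KO high-fat array 3 (adjusted p = 0.0343), and the second was kept with each array left out in turn. With the probe sets of Cxcl1 averaged neither was kept (adjusted p = 0.293 and 0.176). Its dimmer probe sets had 12-array means of 5.06 and 4.59, near or under the floor. Cx3cl1, the ligand of Cx3cr1, was lower in KO by an averaged −0.32 (SE 0.085), adjusted p = 0.0487, a call kept only without WT high-fat array 2 (adjusted p = 0.0282). With the probe sets of Cx3cl1 averaged its difference was only −0.066. Its dimmer probe sets had 12-array means of 7.04, 4.56 and 3.65, of which only the first was above the floor. Cxcl14 was at 5.33 to 5.80 on the 6 normal-diet arrays and at 4.60 to 4.92, under the floor, on the 6 high-fat arrays. It entered the fit through the normal-diet arrays alone, so no size is read from its call (adjusted p = 0.0222); the call was lost without WT high-fat array 2 (adjusted p = 0.0597) and KO high-fat array 3 (adjusted p = 0.0525), and with its probe sets averaged (adjusted p = 0.106).

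Further lymphocyte lists gave 1 call. Of 12 tested B and plasma cell genes 1 passed, against 6.32% of all genes. Ebf1 was higher in KO by an averaged 0.33 (SE 0.081), adjusted p = 0.0367; Ebf1 is a B lineage factor that fat and stromal cells also express, and the call was kept only without WT normal diet array 2 (adjusted p = 0.0323), WT high-fat array 2 (adjusted p = 0.0218) and KO high-fat array 3 (adjusted p = 0.0495). Of 15 tested T and NK genes none passed, the smallest p belonging to Zap70 (0.25 (SE 0.07), adjusted p = 0.0563), a kinase of the T cell receptor, which passed without KO normal diet array 1 (adjusted p = 0.0303) and WT high-fat array 2 (adjusted p = 0.0465). Of 5 tested dendritic cell genes none passed (Cd83 on the normal diet −0.58 (SE 0.23), adjusted p = 0.175). The same held for 3 tested neutrophil and mast cell genes (S100a8 in the high-fat groups 1.34 (SE 0.60), adjusted p = 0.368, and 0.77 without KO array 3) and for 3 tested genes of lymph node stroma and vessels (Cxcl13 averaged −0.41 (SE 0.13), adjusted p = 0.0738). Among genes that define these cells, Mpo, Elane and Csf3r of neutrophils, Cpa3 and Fcer1a of mast cells, Flt3 and Xcr1 of dendritic cells and Glycam1 of lymph node vessels did not pass the filter.

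Genes of other islet cell kinds also differed between genotypes. All 8 endothelial genes had lower averaged means in KO, against 59.5% of all genes, and Pecam1 (−0.50 (SE 0.11), adjusted p = 0.0318) and Kdr (−0.23 (SE 0.06), adjusted p = 0.0448) passed, where 6.32% of all genes did. The mean deviation of the endothelial list was −0.22 to −0.11 in KO and −0.043 to 0.10 in WT on the normal diet. With high-fat feeding it was −0.10 to 0.026 in KO and 0.076 to 0.18 in WT. Neither diet showed overlap. The call for Pecam1 was kept only without WT normal diet array 2 (adjusted p = 0.0397), WT normal diet array 3 (adjusted p = 0.0474), KO normal diet array 1 (adjusted p = 0.0338), WT high-fat array 2 (adjusted p = 0.0263) and KO high-fat array 2 (adjusted p = 0.0470), and that for Kdr only without WT high-fat array 2 (adjusted p = 0.0455) and KO high-fat array 1 (adjusted p = 0.0467). All 11 tested acinar genes had higher averaged means in KO, where 59.5% of all genes had lower ones, and none passed. The acinar list deviated by 0.0069 to 0.36 in KO and −0.22 to 0.12 in WT on the normal diet. With high-fat feeding this deviation was −0.10 to −0.042 in KO, inside the WT range of −0.42 to 0.11. Of 8 stromal genes 1 passed, Pdgfrb, which was higher in KO (0.34 (SE 0.075), adjusted p = 0.0299), a call kept only without WT normal diet array 3 (adjusted p = 0.0491), KO normal diet array 2 (adjusted p = 0.0306), WT high-fat array 2 (adjusted p = 0.0244) and KO high-fat array 3 (adjusted p = 0.0429). Over all settings the Pdgfrb difference ran from 0.12 to 0.41 and its adjusted p from 0.0084 to 0.348 in limma's fits. None of 5 ductal, 2 red blood cell and 8 endocrine genes tested passed. The part of the endothelial and acinar differences in those of the immune genes was not tested.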

How the data were processed

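Affymetrix mouse expression arrays measured 12 RNA samples. The authors deposited log2 RMA values, made with Partek 6.6 per the submitters' processing notes; the labels' protocols give Trizol extraction. RMA in its usual form smooths differences of dim probe sets and normalises arrays to a common distribution, so a change shared by most genes is removed. Of 45101 probe sets, 64 were controls, 34945 had 1 gene symbol, 932 several and 9160 none in GEO's platform annotation, and 34741 matched the reference of GRCm38.p6 for current symbols. The number of arrays limits the precision.

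Each gene was read on its brightest probe set, by the mean of the 12 arrays, and 2956 genes not above 5 on 3 arrays were left out. With limma 3.58.1 (R 4.3.3), group means of the 12 arrays were fitted together (8 residual degrees of freedom) and 7 two-sided contrasts tested, with Benjamini-Hochberg adjustment over 15237 genes and a threshold of 0.05. The fit was tested on simulated data. The immune genes and further lists were chosen with earlier results of these data known. Values on every array are given for called members and, in each kind, for the 4 brightest and the 3 with the smallest p; further lists by calls, otherwise smallest p, and brightest members. Sequences come from RefSeq promoters; the 4 strings, nested in part, were searched on both strands.

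Replicate numbers are shared by the groups. Same-numbered KO arrays of both diets deviated together (r = 0.29, 0.38 and 0.14), each over 0.1, and were treated as paired in an added fit (random block, correlation 0.37); the other pairings did not. The labels give only the numbers and unlike-numbered arrays were not compared, so pairing of the KO arrays is assumed and not shown. Alternatives were median centring, cyclic loess, a filter at 6, no filter, averaging all probe sets of 1 gene, the replicate block and leaving out each array.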

Additional observations from a re-analysis of the deposited data

How the results depend on the processing

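Counts over all genes moved most: KO minus WT on the normal diet, 128 calls, gave 338 with median centring, 67 with the mean of probe sets, 82 without array 3 of both high-fat groups and 5 with the replicate block. On the high-fat diet 4 calls became 8, 2 without both arrays and 0 with the block; averaged, 963 became 635 with the mean of probe sets, 152, 27 with the block and 352 with paired KO arrays as a random replicate block. For diet, 12 calls in WT became 19 (cyclic loess), 5 and 0 (block); 0 in KO became 10 (random replicate block); 30 averaged became 0, 0 (block) and 84 (random replicate block). Leaving out 1 array gave 2 to 223, 0 to 272, 255 to 2500, 0 to 11 and 0 to 30 calls in that order of comparisons, and 0 each time for diet in KO and for the interaction.

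Of the immune genes, the averaged genotype count of 1 became 2 with a filter at 6 (C1qa and Prf1) and 0 with cyclic loess, median centring, the mean of probe sets, the block, the random replicate block and without both arrays; it was 0 to 3 on leaving out 1 array. Ms4a1, which lies under the floor on most normal-diet arrays, was called for diet in WT with median centring (1), averaged over genotypes with median centring and the random replicate block (1 each), and leaving out 1 array gave 0 to 1 in WT. As above, no test is read from Ms4a1. The median difference of the 30 on leaving out 1 array ran −0.14 to −0.028, −0.28 to −0.071 and −0.20 to −0.08 for genotype, −0.0049 to 0.15, −0.099 to 0.099 and −0.05 to 0.069 for diet and −0.18 to 0.054 for the interaction; on the normal diet it was 0.038 with median centring and 0.0041 with no filter, and without both arrays it was 0.023 on the high-fat diet, −0.0038 averaged and 0.12 for the interaction. The mean of probe sets turned the averaged difference of Ptprc to −0.17, Ebf1 to −0.0097 and H2-DMa to 0.086; the cause was not tested. Median centring moved the all-gene median on the normal diet by 0.11, and the share of higher calls from 57.0% to 87.3% (80.2% with cyclic loess), averaged from 52.2% to 86.0% (72.8%). In WT diet it went from 25.0% to 38.9%, and on the high-fat diet from 50% to 62.5%. By the labels same-numbered arrays share only a number, in KO as in the other groups, and the block is the paired fit for the others.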
